A study of Oryctolagus cuniculus with 24 samples.

Results

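The 68 genes described here were higher in the lamina propria than in the epithelium of the caecum of untreated rabbits and changed little under Trichuris suis ova (TSO) given with dextran sodium sulphate (DSS). They were chosen from 17318 genes by 3 conditions on the mean log2(CPM + 1), where CPM is the reads of a gene over all reads of the library, times 1000000. In the Veh Water group the lamina propria cells exceeded the epithelial cells by more than 2 log2 units, the mean in lamina propria cells was above 20 CPM, and the TSO DSS group lay within 1 log2 unit of Veh Water in both cell types. Genes of the mitochondrial chromosome and 1 further gene were left out by the rule.

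The study sequenced polyadenylated RNA of lamina propria mononuclear cells (LPMC) and intestinal epithelial cells (IEC) from the caecum of 12 New Zealand white rabbits. Each animal gave 1 LPMC and 1 IEC library. The study's methods give the age of the rabbits as 8 to 10 weeks where housing is described, and state no age at sampling. TSO are the embryonated eggs of a pig whipworm, and DSS is a polymer that injures the gut epithelium and causes colitis. The 4 groups of 3 immunocompetent rabbits were Veh Water (vehicle gavage and plain fennel tea), Veh DSS (vehicle gavage and DSS), TSO Water (ova and plain tea) and TSO DSS (ova and DSS). Ova were given by gavage in 3 doses of 2500, DSS was added to the tea at 0.1% for 5 days from day 26, and cells were taken on day 35.

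The lamina propria is the connective tissue under the gut epithelium. It holds lymphocytes, plasma cells, macrophages, eosinophils, fibroblasts and vessels, while the epithelium above it absorbs water and nutrients, secretes mucus and forms the barrier to the lumen. Genes expressed mainly in immune and connective tissue cells are therefore usually far higher in LPMC than in IEC, and some IEC preparations carry lymphocytes that live within the epithelium. In whole-population RNA such as this, fewer cells of a type and less RNA per cell cannot be told apart. The files give Ensembl gene identifiers and do not pair them with gene symbols. None of the 17318 identifiers matched the name table used here, so genes are given by identifier, and the cell type labels were not checked here against marker genes.

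LPMC libraries held 3685522 to 15770401 reads and IEC libraries 13148511 to 27479798, and the shallowest was LPMC of TSO DSS rabbit 3. The LPMC library was the shallower one in every rabbit except Veh DSS rabbit 3 and TSO Water rabbit 1. The members themselves had at least 88 reads in every LPMC library and down to 0 in an IEC library. Reads of mitochondrial genes made up 9.06% to 46.5% of a library. Veh Water rabbit 1 and TSO Water rabbit 2 were kept in another room than the other 10 rabbits. With 3 rabbits in each group, no group held enough samples for a test of outlying libraries.

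In Veh Water, 371 genes met the enrichment and level conditions, and the 68 members were the 18.3% of them that stayed within the limits in TSO DSS. Of the 303 others, 191 lay at or below -1 and 26 at or above 1 in LPMC of TSO DSS. In IEC 130 lay at or above 1 and 42 at or below -1, and 86 were outside the limits in both cell types. Since these values chose the members, they describe the selection and were not tested. The members nearest the enrichment threshold stood at 2.01 and 2.04 log2 units and the nearest genes outside at 1.99 and 1.97. At the limit for LPMC of TSO DSS, members stood at -0.98 and -0.95 and the nearest genes outside at -1.06 and -1.08. At the limit for IEC, members stood at 0.95 and 0.93 and outsiders at 1.01 and 1.05. At the level threshold the lowest members had 20.7 and 20.8 CPM and the highest excluded genes 16.1 and 15.3 CPM. No gap in the enrichment or in the change separated the members from the next genes. Under the mirrored rule 104 IEC-enriched genes lay within the limits.

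The members were spread over 21 of the 22 chromosomes listed in the files. Chromosome 12 held the most, with 7 members, or 10.3% of the set beside 7.13% of all genes above 20 CPM in LPMC, and chromosomes 1, 4, 7 and 9 held 6 each. Chromosome 15 held none. By strand, 41 members were annotated on the plus and 27 on the minus strand.

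Together the members took a small and variable part of each LPMC library. Their share of all LPMC reads was 4.87%, 2.93% and 3.38% in the 3 Veh Water rabbits and 3.52%, 2.84% and 3.00% in Veh DSS. It was 2.82%, 4.14% and 3.82% in TSO Water and 5.65%, 2.17% and 5.52% in TSO DSS. The 4 groups overlapped, and both the highest and the lowest LPMC share belonged to the TSO DSS group. In IEC the share was 0.480%, 0.526% and 0.475% in Veh Water and 0.457%, 1.11% and 0.706% in Veh DSS. TSO Water IEC stood at 0.456%, 0.397% and 0.516% and TSO DSS IEC at 0.846%, 0.711% and 0.347%. In each of the 12 rabbits the LPMC share exceeded the IEC share. The Veh Water and TSO DSS rabbits chose the members, so for them this is part of the selection.

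**Figure D1:**
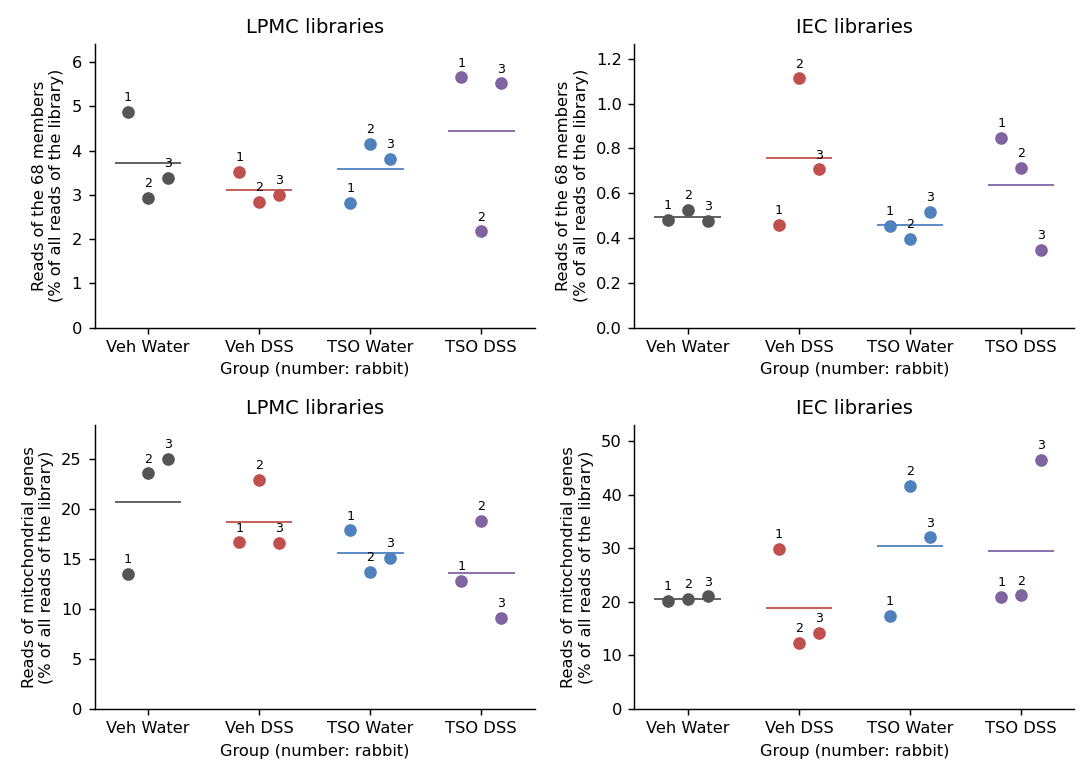
Share of reads taken by the 68 members (upper row) and by mitochondrial genes (lower row), as % of all reads of a library, in LPMC (left) and IEC (right). Each point is 1 library, numbered by rabbit, and lines are group means of 3 libraries; in LPMC the TSO DSS points for the members spread from 2.17% to 5.65%, while in IEC the highest point is Veh DSS rabbit 2 at 1.11%.

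In LPMC the mitochondrial share was lowest where the member share was highest. The 4 LPMC libraries with the highest member share, at 4.14% to 5.65%, had 9.06% to 13.7% mitochondrial reads, and the other 8 libraries, at 2.17% to 3.82%, had 15.1% to 25.0%. As a share of reads outside the mitochondrial chromosome, the same libraries held 4.80% to 6.48% against 2.68% to 4.51%, so these 4 remained the highest when mitochondrial reads were left out. Of these 4 libraries, 2 were those of the rabbits in the other room. The part of RNA quality, cell make-up or room in these differences was not tested.

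A few members carried most of the reads. Over the 6 LPMC libraries of Veh DSS and TSO Water, which the rule did not use, the top member held 16.4%, the top 3 held 36.3%, the top 10 held 64.7% and the top 20 held 81.7% of the summed member CPM. These are shares of reads and not of transcripts, since CPM is not scaled to transcript length. In those libraries 10 members had a mean above 1000 CPM, 7 between 500 and 1000, 26 between 100 and 500, 10 between 50 and 100, 14 between 20 and 50, and 1 at or below 20. The median member level was 190 CPM in LPMC of Veh Water, 173 in Veh DSS, 182 in TSO Water and 231 in TSO DSS, after 1 scaling of all libraries by the trimmed mean of M values (TMM). In IEC the medians were 23.4, 40.7, 25.9 and 36.1 CPM.

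The members with the most LPMC reads were ENSOCUG00000016288 on chromosome 4 and ENSOCUG00000023055 on chromosome 12. For ENSOCUG00000016288, LPMC levels were 8078, 4633 and 7152 CPM in Veh Water, 5585, 5448 and 5438 in Veh DSS, 4513, 6063 and 6028 in TSO Water, and 9489, 3174 and 7528 in TSO DSS. Its IEC levels were 732, 707 and 634 CPM in Veh Water, 680, 1385 and 812 in Veh DSS, 518, 703 and 585 in TSO Water, and 1095, 789 and 696 in TSO DSS. Every LPMC library lay above every IEC library, the lowest being LPMC of TSO DSS rabbit 2, and the LPMC values of the 4 groups overlapped. ENSOCUG00000023055 had 5788, 3267 and 4224 CPM in LPMC of Veh Water and 3502, 3423 and 2773 in Veh DSS. It had 2647, 4483 and 3711 CPM in TSO Water and 6289, 1697 and 6381 in TSO DSS, against 98 to 559 CPM over the 12 IEC libraries. The same TSO DSS rabbit was again the lowest in LPMC.

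The rule fixed the LPMC excess in Veh Water, so it was tested only in the 6 rabbits of Veh DSS and TSO Water, each group in its own fit over all genes (limma on log2(CPM + 1) with TMM scaling, called at a Benjamini-Hochberg adjusted p below 0.05 and a log2 fold change above 1 in size). In TSO Water all 68 members were higher in LPMC than in IEC, with adjusted p from 6.79e-05 to 0.0216 by limma. In TSO Water and in Veh DSS, 67 members passed the filter on low counts on their IEC libraries alone. ENSOCUG00000010762 passed only through LPMC, where it is high, and is counted among those called in both groups. Of all 10312 genes tested there, 15.6% were called higher and 4.63% lower in LPMC. The median log2 fold change of the members was 2.74, with a range of 1.72 to 5.42, beside -0.01 for all genes. Of the 303 LPMC-enriched genes outside the limits, 286 were called higher, and their median was 3.12. Every LPMC library lay above every IEC library for 68 of 68 members in TSO Water, and this held for 26.1% of all genes tested.

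In Veh DSS 54 of the 68 members were called higher in LPMC and none lower, beside 3.28% of the 10356 genes tested called higher and 1.82% called lower. The member median was 2.00, with a range of 0.63 to 4.67, beside 0.03 for all genes. The 14 members not called had log2 fold changes of 0.63 to 2.19 with adjusted p from 0.0519 to 0.561 by limma, and 11 of them were higher at an unadjusted p below 0.05, beside 13.6% of all genes. Of the LPMC-enriched genes outside the limits, 74 of 303 were called higher, with a median of 1.72. By the edgeR quasi-likelihood test 44 members were called higher, beside 2.79% of all genes, and by DESeq2 63, beside 6.45%. By column sums 51 members were called, beside 2.8% of all genes, and with no filter 50, beside 2.36%. With the rabbit as a block, which pairs the 2 libraries of an animal, 54 members and 158 of the 303 were called, and the calls over all genes rose from 340 to 601 higher. Every LPMC library lay above every IEC library for 65 of 68 members, against 16.2% of all genes. The 3 members with overlap, named after their values were seen, were ENSOCUG00000006999, ENSOCUG00000009222 and ENSOCUG00000009352. The calls in Veh DSS rested on each of 2 rabbits: without Veh DSS rabbit 1 or without rabbit 3, 0 members and 0 genes of the whole table were called, although 62 and 60 members then were higher at an unadjusted p below 0.05, beside 11.6% and 6.91% of all genes, and the medians were 1.73 and 1.95. Without rabbit 2, 50 of 67 members tested were called, beside 2.67% of all genes.

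**Figure D2:**
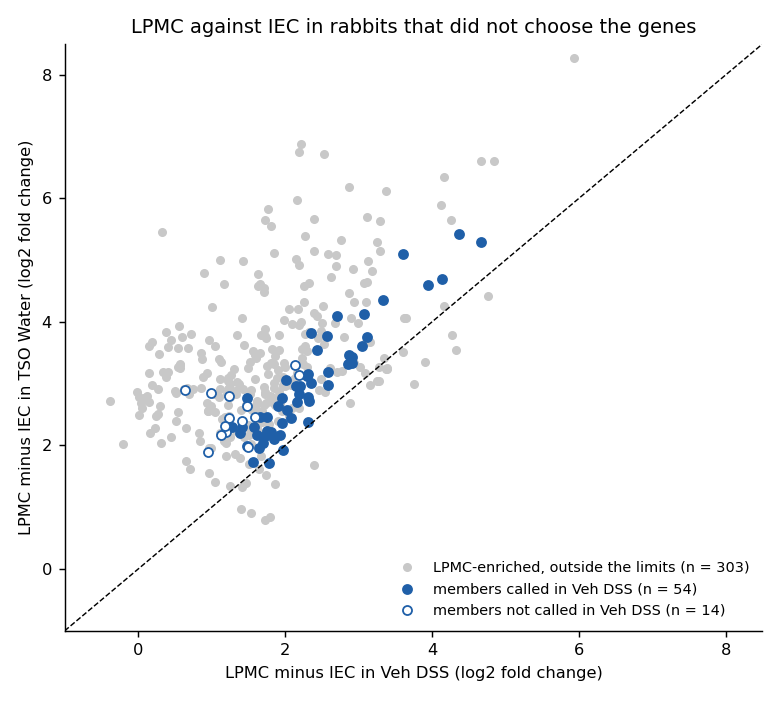
Log2 fold change of LPMC over IEC in the Veh DSS rabbits (x axis) and in the TSO Water rabbits (y axis) for the 68 members and the 303 LPMC-enriched genes outside the limits; 1 point is 1 gene, 3 rabbits in each group, and the dashed line marks equal values. Filled blue points are the 54 members called in Veh DSS and open points the 14 not called; most members lie above the line, and the grey points reach further from it.

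Each rabbit gave its own LPMC minus IEC difference for each member. The median over members was 3.13, 2.59 and 2.70 log2 units in the Veh Water rabbits, which chose them, and 2.54, 1.47 and 2.17 in Veh DSS. In TSO Water it was 2.61, 2.83 and 2.84, and in TSO DSS 2.54, 1.40 and 3.17. Veh DSS rabbit 2 and TSO DSS rabbit 2 stood lowest, while the medians of all genes were between -0.09 and 0.10 in the 12 rabbits. All 68 members were higher in LPMC in 9 of the rabbits, and 65, 67 and 64 were in Veh DSS rabbit 2, TSO DSS rabbit 1 and TSO DSS rabbit 2. Over the 6 rabbits that the rule did not use, 65 members were higher in LPMC in every rabbit. The LPMC-enriched genes outside the limits had medians of 2.36, 0.99 and 1.66 in Veh DSS, so rabbit 2 was lowest for them too. In TSO DSS their medians were 0.75, -0.27 and 1.02, low as their selection implies and again lowest in rabbit 2.

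**Figure D3:**
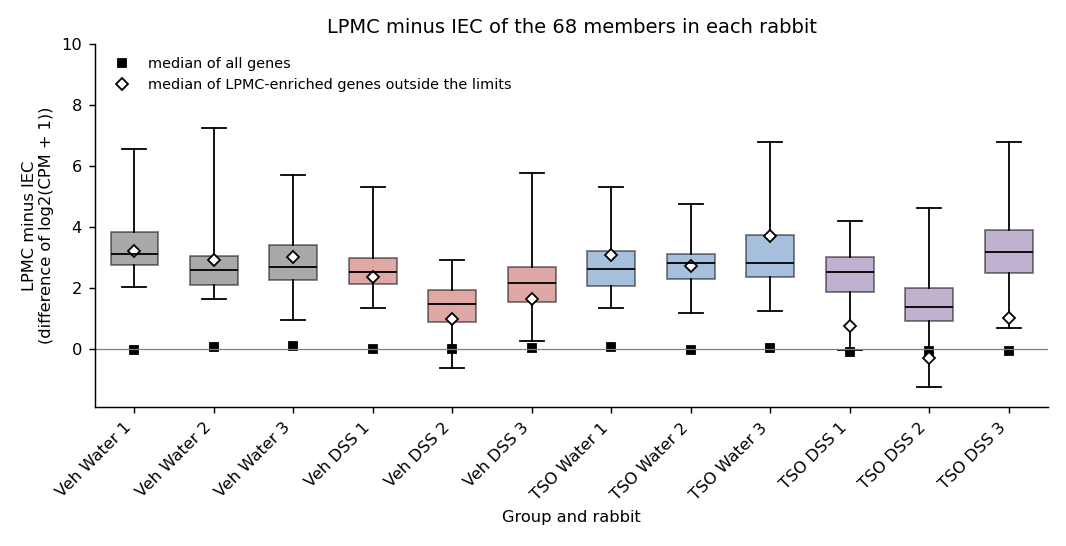
LPMC minus IEC difference of log2(CPM + 1) for the 68 members in each of 12 rabbits; boxes span the quartiles with the median as a line, and whiskers reach the lowest and highest member. Squares are the medians of all genes and diamonds those of the 303 LPMC-enriched genes outside the limits; the member boxes are lowest in Veh DSS rabbit 2 (median 1.47) and TSO DSS rabbit 2 (median 1.40).

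Within Veh DSS, rabbit 2 stood apart in the IEC level of the members more than in the LPMC level. The median member level on the log2(CPM + 1) scale in IEC was 4.90, 5.88 and 5.03 in the Veh DSS rabbits and 4.47, 5.07 and 4.56 in TSO Water. In LPMC it was 7.43, 7.35 and 7.36 in Veh DSS and 7.12, 7.81 and 7.59 in TSO Water. In TSO DSS rabbit 2 the LPMC median, 6.60, was the lowest of all 12 LPMC libraries, beside 8.10 and 8.22 in the other 2 rabbits of its group.

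The members with the largest LPMC excess in these 6 rabbits were ENSOCUG00000022114 on chromosome 2 and ENSOCUG00000006942 on chromosome 3. ENSOCUG00000022114 had 515, 497 and 379 CPM in LPMC of Veh DSS and 362, 780 and 695 in TSO Water, against 12.0, 65.0 and 5.88 CPM and 13.6, 34.3 and 5.31 CPM in IEC. Its log2 fold change was 4.67 ± 0.78 (SE, n = 3 rabbits, adjusted p = 0.0242 by limma) in Veh DSS and 5.30 ± 0.60 (adjusted p = 0.00067 by limma) in TSO Water. ENSOCUG00000006942 had 1472, 1159 and 1118 CPM in LPMC of Veh DSS against 37.4, 191 and 28.1 in IEC, with a log2 fold change of 4.37 ± 0.68 (SE, adjusted p = 0.0201 by limma). In TSO Water its LPMC levels were 1093, 2010 and 1569 CPM and its IEC levels 26.2, 78.1 and 19.5, a log2 fold change of 5.42 ± 0.49 (SE, adjusted p = 0.000285 by limma). For both genes the cell types were far apart in every rabbit, and within IEC rabbit 2 was the highest of each group. By the edgeR quasi-likelihood test the Veh DSS excess of these genes was 4.07 and 3.87 and did not pass the adjusted threshold.

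The same IEC libraries were high for the other members with a large excess. For each of the 5 members with the largest LPMC excess, the 3 highest IEC libraries were those of Veh DSS rabbit 2, TSO DSS rabbit 1 and TSO Water rabbit 2. This set of 3 highest libraries occurred for 9 of the 68 members (13.2%) and for 0.833% of the 5401 other genes above 20 CPM in LPMC. The 5 were picked by their difference over libraries that include 2 of the 3, so the count is a description. Whether these IEC libraries held more lamina propria cells or a higher level within epithelial cells was not tested.

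At the other end stood ENSOCUG00000006700 on chromosome 12 and ENSOCUG00000005161 on chromosome 13. ENSOCUG00000006700 had 188, 169 and 200 CPM in LPMC of Veh DSS against 63.7, 140 and 96.8 in IEC. Its log2 fold change of 0.95 ± 0.28 (SE, n = 3) was not called, with adjusted p = 0.108 by limma. In TSO Water it had 223, 228 and 229 CPM in LPMC against 58.4, 69.5 and 53.1 in IEC, and the fold change was 1.90 ± 0.15 (SE, adjusted p = 0.00017 by limma). Its LPMC libraries exceeded its IEC libraries without overlap in both groups. ENSOCUG00000005161 had log2 fold changes of 1.57 ± 0.33 (SE, adjusted p = 0.0458 by limma) in Veh DSS and 1.73 ± 0.42 (adjusted p = 0.0202 by limma) in TSO Water. With column-sum CPM, DESeq2 size factors, no filter on low counts or the edgeR quasi-likelihood test, its Veh DSS call was lost. The member with the fewest IEC reads, also named after its values were seen, was ENSOCUG00000010762 on chromosome 17, with 0 to 27 reads in the 12 IEC libraries and 91 to 577 in LPMC.

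**Figure D4:**
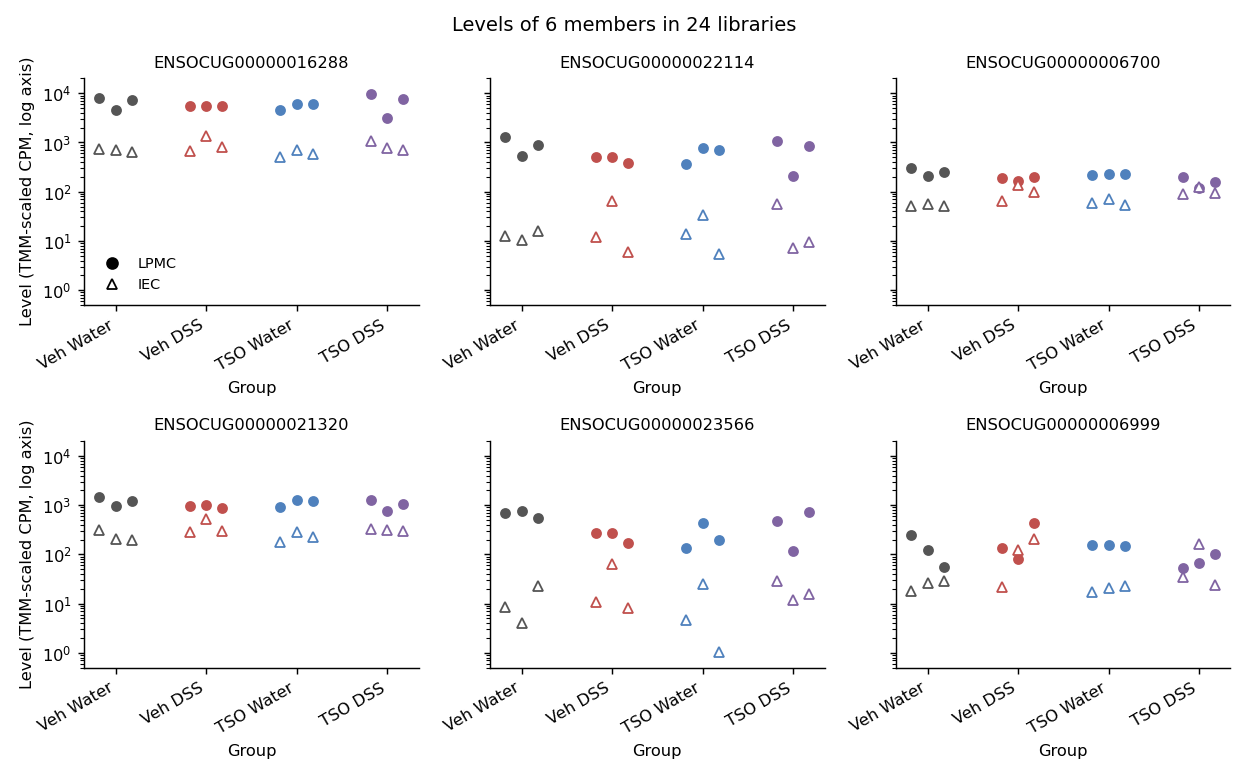
Levels of 6 members in the 24 libraries, as TMM-scaled CPM on a log axis, by group; filled circles are LPMC and open triangles IEC, 1 symbol for each rabbit. The members are those with the highest LPMC level, the largest and the smallest LPMC minus IEC difference, the smallest SD in LPMC, and the 2 largest SDs in LPMC; LPMC and IEC symbols overlap in Veh DSS for ENSOCUG00000006999 only.

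Whether the LPMC excess differed between TSO Water and Veh DSS rabbits was tested as an interaction in 1 fit over the 12 libraries. No member was called, and none of the 10785 genes tested was either (0.0% in each direction); the lowest adjusted p of a member was 0.278 by limma. The excess was larger in TSO Water for 66 of 68 members, with a median difference of 0.72 log2 units and a range of -0.06 to 2.27, beside -0.01 for all genes and 1.53 for the LPMC-enriched genes outside the limits. At an unadjusted p below 0.05 the interaction held 10 members, all larger in TSO Water, beside 6.73% of all genes larger and 1.96% smaller. With a difference above 1 log2 unit as well, it held 7 members, beside 5.02% of all genes. The edgeR quasi-likelihood test called 0 members, and DESeq2 called 1, ENSOCUG00000010198, beside 1.78% of all genes. Without Veh DSS rabbit 2 the median difference was 0.37, and without Veh DSS rabbit 1 it was 0.95 and 1 member was called, beside 1.82% of all genes.

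Within LPMC, TSO Water was compared with Veh DSS, the contrast between treatments that uses no library of the rule. No member was called in either direction, beside 0.107% of 10312 genes called higher and 0.0097% called lower in TSO Water. The median log2 fold change of the members was 0.19, with a range of -0.32 to 1.35, and 54 of 68 were above 0, beside a median of -0.00062 for all genes. The member median was 0.33 without TSO Water rabbit 1, 0.12 without rabbit 2 and 0.09 without rabbit 3. The LPMC-enriched genes outside the limits had a median of 0.80, and 2 of them were called higher. At an unadjusted p below 0.05, 9 members were higher and none lower, beside 7.42% of all genes higher and 4.8% lower, and without TSO Water rabbit 1 18 members were higher, beside 7.32%. With a log2 fold change above 1 as well, 4 members remained, beside 3.0% of all genes. By DESeq2 2 members were called higher, beside 1.84% of all genes, and by the edgeR quasi-likelihood test 0, beside 0.0776%.

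The 4 members past both the unadjusted p and the fold change, named after their values were seen, were ENSOCUG00000005774, ENSOCUG00000009222, ENSOCUG00000009352 and ENSOCUG00000013450. ENSOCUG00000009222 on chromosome 16 had 1676, 1859 and 1547 CPM in LPMC of TSO Water against 794, 632 and 908 in Veh DSS, and 1437, 1055 and 641 in Veh Water. Its TSO Water libraries all lay above those of Veh DSS, with a log2 fold change of 1.13 ± 0.18 (SE, n = 3, adjusted p = 0.0976 by limma). ENSOCUG00000013450 on chromosome 6 had 152, 190 and 189 CPM in TSO Water against 68.5, 97.7 and 59.1 in Veh DSS, and 146, 113 and 91.7 in Veh Water. Its groups did not overlap either, and its log2 fold change was 1.25 ± 0.21 (SE, adjusted p = 0.104 by limma). These were the 2 members that DESeq2 called. ENSOCUG00000010198, whose levels by library are given with the correlations between members, had the same adjusted p as ENSOCUG00000009222, 0.0976 by limma, with a log2 fold change of 0.95 ± 0.15 (SE), and its TSO Water libraries also all lay above those of Veh DSS.

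In IEC, 67 of the 68 members passed the filter on low counts, and ENSOCUG00000010762 did not. No member was called between TSO Water and Veh DSS, beside 0.079% of 10130 genes called higher and 0.0296% called lower. The members were lower in TSO Water for 64 of 67, with a median of -0.51 and a range of -2.0 to 0.19, beside 0.01 for all genes and -0.69 for the LPMC-enriched genes outside the limits. Scaling moved all genes here: by column sums the median of all genes was -0.11 and that of the members -0.64, and without mitochondrial reads they were 0.10 and -0.43. At an unadjusted p below 0.05, 5 members were lower, beside 4.44% of all genes. This count was 12 by column sums, beside 5.98%, and 17 without Veh DSS rabbit 1, beside 8.79%. With a log2 fold change below -1 as well, 2 members were lower, beside 3.04% of all genes, and they are named after their values were seen: ENSOCUG00000006999 at -2.0 and ENSOCUG00000000778 at -1.12. DESeq2 called 2 members lower, beside 2.15% of all genes, and the edgeR quasi-likelihood test 0. Without Veh DSS rabbit 2 the median was -0.22 and 2 members were lower at an unadjusted p below 0.05, beside 3.0% of all genes. Without Veh DSS rabbit 1 the median was -0.76 and 1 member was called lower, beside 1.55% of all genes.

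**Figure D5:**
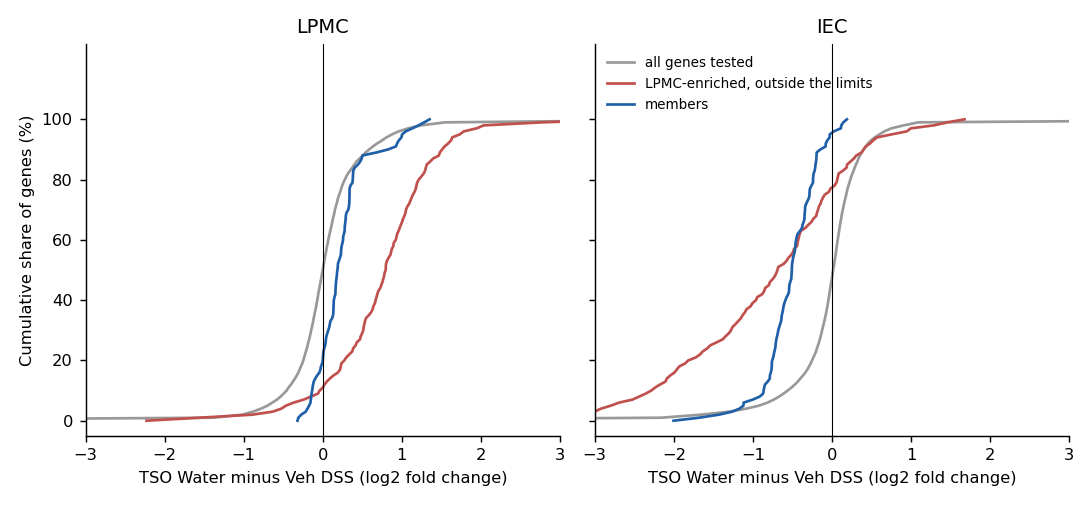
Cumulative share of genes (%) by log2 fold change of TSO Water over Veh DSS in LPMC (left) and IEC (right), for all genes tested, for the LPMC-enriched genes outside the limits and for the members. The member curve crosses the middle at 0.19 in LPMC and at -0.51 in IEC, and it is steeper than the curve of the genes outside the limits in both panels.

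The differences from Veh Water are given without a test, since the Veh Water libraries chose the members and are shared by all 3 contrasts. In LPMC the members' median difference from Veh Water was -0.30 in Veh DSS, with 61 of 68 below 0, and -0.14 in TSO Water, with 46 below 0. In TSO DSS, which the rule limited, it was -0.04. Leaving out 1 Veh Water rabbit gave -0.47 to -0.17 in Veh DSS, -0.31 to 0.04 in TSO Water and -0.23 to 0.16 in TSO DSS, the upper value of each being that without Veh Water rabbit 1. By column sums the TSO DSS median was 0.06, so that neither TSO group had a settled direction in LPMC. In IEC the median was 0.64 in Veh DSS, with 65 members above 0 and 61 within 1 log2 unit, beside 92.9% of all genes within it. It was 0.07 in TSO Water, but -0.13 by column sums, and 0.54 in TSO DSS. The medians of all genes were between -0.05 and -0.02 in the 6 contrasts. On the TMM scale 64 members stayed within 1 log2 unit in LPMC of TSO DSS and 60 in IEC, fewer than the 68 of the rule, whose scale was the column sum. Of all genes, 82.6% and 91.6% lay within 1 log2 unit in these contrasts. The LPMC-enriched genes outside the limits had a median of -0.69 in Veh DSS LPMC and 0.04 in TSO Water LPMC.

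ENSOCUG00000023566 on chromosome 21 was the 1 member at or below -1 in LPMC in both Veh DSS and TSO Water, and it had the largest SD over the 12 LPMC libraries, 0.97 log2 units. It had 679, 775 and 554 CPM in Veh Water, 269, 278 and 167 in Veh DSS, 135, 440 and 199 in TSO Water, and 486, 118 and 734 in TSO DSS. All 6 libraries of Veh DSS and TSO Water lay below the 3 of Veh Water, and the TSO DSS group spanned nearly the whole range. It therefore met the limits in TSO DSS as a mean over 3 libraries that were far apart. ENSOCUG00000006999 on chromosome 12 varied next most, with 252, 121 and 56.2 CPM in Veh Water, 134, 82.3 and 431 in Veh DSS, 152, 152 and 151 in TSO Water, and 52.3, 67.3 and 101 in TSO DSS. Its IEC levels reached 126 and 210 CPM in Veh DSS rabbits 2 and 3 and 160 CPM in TSO DSS rabbit 2, against 17.4 to 35.6 CPM in the other 9 IEC libraries.

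The steadiest members in LPMC were ENSOCUG00000021320 on chromosome 4 and ENSOCUG00000015574 on chromosome 13. ENSOCUG00000021320 had 1458, 956 and 1230 CPM in Veh Water, 944, 1008 and 881 in Veh DSS, 928, 1296 and 1188 in TSO Water, and 1287, 754 and 1055 in TSO DSS, an SD of 0.28 log2 units over 12 libraries. The 4 groups overlapped. Its LPMC excess was called in both tested groups, at 1.42 ± 0.25 (SE, adjusted p = 0.0285 by limma) in Veh DSS and 2.30 ± 0.22 (adjusted p = 0.000388 by limma) in TSO Water. ENSOCUG00000015574 had 14.3 to 31.2 CPM over the 12 LPMC libraries and 2.45 to 10.3 CPM in IEC, again with the highest IEC value in Veh DSS rabbit 2.

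The members' median SD over the 12 LPMC libraries was 0.52 log2 units, with a range of 0.28 to 0.97, beside 0.27 for the 5469 genes above 20 CPM in LPMC and 1.13 for the LPMC-enriched genes outside the limits. In IEC the medians were 0.54, 0.24 and 1.11. These genes were kept near Veh Water in TSO DSS on average only, and LPMC of TSO DSS rabbit 2 was the lowest library for 49 of the 68 members, beside 9.41% of the other genes above 20 CPM. LPMC of TSO DSS rabbits 1 and 3 was the highest for 21 and 20 members, beside 10.6% and 22.7% of the other genes, and that of Veh Water rabbit 1 for 14, beside 7.33%. The libraries of TSO DSS rabbits 1 and 3 held the fewest reads in LPMC, 8281581 and 3685522. In IEC, Veh DSS rabbit 2 was the highest library for 48 members, beside 18.9% of the other genes.

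Most members followed each other across libraries. The correlation of a member with the median of the other members over the 12 LPMC libraries had a median of 0.84 and a range of -0.19 to 0.97, and it was above 0.5 for 56 of 68. For the 5401 other genes above 20 CPM the median correlation with the member median was 0.04. Over the 12 IEC libraries the median was 0.72, with a range of 0.21 to 0.95 and 58 members above 0.5, beside -0.06 for the other genes. The points share their library and its scaling, and 6 of each 12 libraries chose the members, so these values are a description. The member with the lowest correlation in LPMC, named after its values were seen, was ENSOCUG00000010198 on chromosome 1, with 61.9, 55.1 and 39.5 CPM in Veh Water, 34.8, 30.4 and 29.8 in Veh DSS, 60.4, 71.8 and 54.5 in TSO Water, and 15.2, 32.5 and 28.4 in TSO DSS. Its levels were higher in both groups without DSS than in both groups with DSS, with no overlap, whereas the member median was highest in libraries of Veh Water and TSO DSS.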

How the data were processed

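LPMC and IEC of 12 rabbits gave 24 libraries. The deposited values are a signal, read counts that the authors multiplied by 1 factor for each library and stored to few digits, in 6 tables with 17318 genes each. The submitters' processing notes name the rabbit build OryCun2.0 and FastQC. The aligner and counter are not given in the sources used here. Strand was not kept, so overlapping genes on opposite strands, and near-identical copies, could share reads. The authors' log2 ratio, p-value and FDR columns were not used. Whole reads were recovered from the smallest steps of each column, and 100% of 343301 values below 1000 lay within 0.1 of a whole read. Veh Water libraries, repeated in several tables, were used once.

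The members and lists were chosen with earlier results of these data known. The rule was applied to the deposited columns, as log2(CPM + 1) from column sums. For tests, the recovered counts were scaled by 1 TMM over 24 libraries (edgeR 4.0.16), turned into log2(CPM + 1) and fitted with limma 3.58.1 with a mean-variance trend in R 4.3.3. Fits used genes with at least 10 reads in at least 3 libraries and only the groups compared. The design was written for counts or for whole reads. The deposited unit asked for a test on a log scale, which limma gave, and the alternatives were count models of the whole reads (DESeq2 1.42.0 and the quasi-likelihood test of edgeR), other scalings, another pseudocount (0.1), no filter, the room and leaving out each rabbit. In simulated counts with 200 genes changed 4-fold, the fits recovered 132 in LPMC against IEC of Veh DSS (10224 genes), 176 in TSO Water (10188 genes), 96 for the interaction (10655 genes), 161 for TSO Water against Veh DSS in LPMC (10191 genes) and 130 in IEC (9981 genes). False calls were 11, 16, 5, 11 and 13 in that order, and none where no gene was changed. All unchanged genes had equal means in the groups and no rabbit effect was set, unlike in real cell types, so the recovery may differ in the data.

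LPMC and IEC with the same number in a group came from the same rabbit per the labels, so the numbers pair the samples. Correlations of paired deviations from group means were 0.39, 0.38 and 0.39 in Veh DSS and -0.08, 0.28 and -0.14 in TSO Water. The same numbers in different groups are different rabbits, for which such correlations were -0.27 to 0.25. Named genes were the members with the highest LPMC level, the largest and smallest LPMC minus IEC difference, the smallest and largest SD in LPMC, and any called between treatments. Of each list the first 2 are given here because identifiers are not paired with symbols, and others are marked as named after their values were seen. Gene and marker lists needed symbols and were not run. Rabbits were allotted at random to ova or vehicle per the study's methods, which do not state how DSS was allotted. The p-values rest on the spread between the 3 libraries of each group, with variance shared over genes by limma. The main LPMC against IEC fits and the interaction did not pair the 2 libraries of a rabbit. Only the fits with the rabbit as a block did.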

Additional observations from a re-analysis of the deposited data

How the results depend on the processing

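With the rabbit as a replicate block, 54 members were called in Veh DSS, 68 in TSO Water and 0 in the interaction, the same numbers as without it, and 53 of the 54 were shared. The block raised the calls over all genes in Veh DSS from 340 to 601 higher, or 5.8%. With it 16% of all genes were called higher in TSO Water and 0% in the interaction. Between TSO Water and Veh DSS the numbers pair no rabbits, and the fit with them as a replicate block called 0 members in LPMC and in IEC; at an unadjusted p alone it held 16 members lower in IEC, beside 4.56% of all genes, in place of 5. In the 5 tested comparisons the medians over the members kept their sign under the scalings, pseudocount and filter tried. Of the medians of the differences from Veh Water, TSO DSS in LPMC (0.06) and TSO Water in IEC (-0.13) changed sign by column sums, and leaving out 1 Veh Water rabbit changed the sign of TSO Water and TSO DSS in LPMC and of TSO Water in IEC. Leaving out 1 rabbit gave 0 to 50 members called in Veh DSS, with 0 without rabbit 1 and 0 without rabbit 3, fits with 2 rabbits, and 62 to 67 in TSO Water, beside 9.64% to 12.3% of all genes called higher. The 62, of 67 tested, was the count without the rabbit of the other room, beside 9.93%. The TSO Water median was 2.53 when mitochondrial reads were left out of the library sum, a scaling that put the median of all genes at -0.23 against -0.01.

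The interaction held 0 to 1 member when 1 rabbit was left out, the 1 beside 1.82% of all genes, and 1 by DESeq2, beside 1.78%. It held 7 with an unadjusted p in place of the adjusted one at the same fold limit, beside 5.02%. TSO Water against Veh DSS in LPMC held 0 members without any 1 rabbit. By DESeq2 it held 2, beside 1.84% of all genes, and by that unadjusted rule 4, beside 3.0%. In IEC the same contrast held 0 to 1 member when 1 rabbit was left out, the 1 beside 1.55% of all genes. It held 2 by DESeq2, beside 2.15%, and 2 by that unadjusted rule, beside 3.04%. The causes of these changes were not tested.

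The rule gave 74 genes with TMM scaling (56 shared with the 68), 57 without mitochondrial reads (54 shared), 68 with a pseudocount of 0.1 (64 shared) and 33 with limits of 0.5 in place of 1. Leaving out 1 rabbit gave 46 to 79 genes: 46 without Veh Water rabbit 1, of which 41 were shared, and 47 without TSO DSS rabbit 3, of which 45 were shared. Membership thus depended on single rabbits. Over the named members and alternatives, 28 values lost their call (1 counted under both the room and the rabbit left out, which are the same fit), 16 of them without Veh DSS rabbit 1 or 3, and none changed sign. With 3 rabbits a group, smaller differences between treatments may not have been detectable at this depth.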
